A study of Mus musculus with 8 samples.

Results

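The genes for the proteins of the cytosolic ribosome were followed in the ventral tegmental area (VTA) of socially stressed (SS) and control (CTR) mouse pups. They were taken by symbol: an Rpl or Rps symbol with a number and at most 1 letter and 1 more digit, plus Rplp0, Rplp1, Rplp2 and Rpsa, without the rows marked -ps as pseudogenes. The rule found 89 genes among 54735 rows of the count table, 36 for the small (40S) and 53 for the large (60S) subunit. Of these, 82 passed the filter on low counts and were tested, 33 for the 40S and 49 for the 60S subunit. The symbols are not all working ribosomal protein genes: 6 of the 89 are annotated as pseudogenes (Rpl32l, Rpl6l, Rps12l1, Rps3a2, Rps3a3 and Rps4l), and 2 of those 6 (Rpl32l and Rps4l) were tested.

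Ribosomal proteins coat and brace the ribosomal RNA of the machine that makes all cytosolic protein, and most are needed in equal number. Their mRNAs are short and abundant and often begin with a run of pyrimidines, the TOP motif, through which their translation follows nutrient and growth signals by way of mTOR and the binding protein Larp1. In neurons they are also carried into dendrites and axons.

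The SS group were DBA2/J pups that met an adult CD1 male they did not know for 30 min a day from P14 to P21, and the CTR group were DBA2/J pups left undisturbed. Each group has 4 mice with 1 library each, taken at P21 by the labels and PD22 by the study's methods; all are labelled male. The labels do not say which pups shared a litter, so p-values measure only the spread between these libraries. Each library came from left and right punches 0.5 mm wide, and the mRNA was read as single 75 bp reads.

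Libraries held 20036086 to 47319997 counts. CTR-5 and SS-5 carried 14997 and 6551 Xist counts and at most 3 counts on 4 Y-linked genes, against their label, so results are also given without them. Markers of dopamine neurons, which define the VTA, were lower in SS: Slc6a3, the dopamine transporter, had 243 to 613 CPM (counts scaled to the size of the library) in CTR and 2.72 to 11.5 in SS, and 5 of 9 such markers passed the test, all lower in SS (edgeR, smallest adjusted p = 0.000531). CTR-1 and CTR-2 had 0 counts for 434 and 354 of 1989 weakly expressed genes, and the other 6 libraries for 1 to 94. Library values below are given in the order CTR libraries 1, 2, 3, 5 and SS libraries 2, 3, 4, 5. In a tissue punch, fewer cells of a type and less RNA per cell cannot be told apart.

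The start of these genes is shown first because the TOP motif is the feature they are best known to share. In RefSeq windows of 250 bases before and 50 after the annotated start (GRCm38.p6), a C followed by at least 4 C or T, starting within 5 bases of the start on the coding strand, was present for 26 of the 64 ribosomal protein genes that have a window (40.6%) and for 18.3% of all 32851 windows. With a match beginning at the start base itself, whatever the bases before it, the count was 12 of 64, against 2.51% of all windows. The lines below hold 15 bases on either side of the annotated start, with the match nearest the start in capitals. In the first 3 genes a match begins at the start base, and the C and T continue upstream of it in lower case. In Rpl22l1 it begins 3 bases downstream, and the last 3, described further on for their values, have no match beginning within 5 bases of the start.
Rpl28, chr7:4792950-4792979, + strand: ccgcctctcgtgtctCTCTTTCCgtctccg
Rps27, chr3:90213634-90213663, - strand: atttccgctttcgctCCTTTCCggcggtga
Rplp2, chr7:141447636-141447665, + strand: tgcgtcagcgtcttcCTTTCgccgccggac
Rpl22l1, chr3:28805493-28805522, + strand: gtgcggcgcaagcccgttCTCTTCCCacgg
Rplp0, chr5:115559452-115559481, + strand: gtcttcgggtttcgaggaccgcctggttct
Rpl5, chr5:107900513-107900542, + strand: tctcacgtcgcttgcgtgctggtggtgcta
Rpl35a, chr16:33056499-33056528, + strand: gcgcctgtggaggtgaggggggttcctgct
No match says only that no such run begins within 5 bases of the annotated start, since the start used in this tissue was not measured. The median log2 fold change (SS minus CTR) was -0.268 for the 26 tested genes with the run and -0.237 for the 35 tested genes with a window and no match, values that lie within the quartiles of the whole set given below.

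No ribosomal protein gene differed between SS and CTR after correction, although nearly all had a slightly lower estimate in SS. The estimate was below 0 for 79 of the 82 tested genes, beside 8173 of all 16538 tested genes (49.4%). The median log2 fold change was -0.25 (quartiles -0.32 and -0.19), a ratio of 0.841, while the median over all tested genes was 0.0037. At an adjusted p under 0.05 (edgeR's quasi-likelihood test, adjusted over all tested genes), 0 of 82 were called lower and 0 were called higher, where the background over all genes was 0.0847% lower and 0% higher. DESeq2 and limma voom also called 0. The smallest adjusted p was 0.714, for Rpl35a.

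At an unadjusted p under 0.05, 18 of the 82 were lower in SS, with a background of 3.7% over all tested genes. In the other direction 0 were higher, with a background of 2.85%. DESeq2 gave 23 of 88 lower (3.21% of all genes in that fit) and limma voom 6 of 82 (3.2%). Shares among other genes of similar coding length are higher than 3.7% and are given further on. That count of 18 changed with the libraries included. With CTR-1 omitted it was 3 of 83 (4.13% of all genes tested in that fit), with CTR-2 omitted 6 (3.22%), with CTR-3 omitted 15 (3.88%) and with CTR-5 omitted 53 of 84 (6.59%). Omitting 1 SS library gave 1 without SS-4, 2 without SS-3, 3 without SS-2 and 9 without SS-5. The share over all genes was 2.06% to 2.64% in these fits, also below the 3.7% with all libraries. Their median log2 fold change for the ribosomal protein genes stayed between -0.271 and -0.239. The part of the smaller groups in these counts was not tested. The median log2 fold change was -0.115 without CTR-1, -0.349 without CTR-5 and -0.376 without both CTR-5 and SS-5, where 50 of 84 were lower at an unadjusted p under 0.05, beside 5.54% of all genes. The 8 values of SS and CTR were fully separated, with SS lower, for 2 of 82 genes (background 2.21%), and with SS higher for 0 (background 2.47%).

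**Figure D1:**
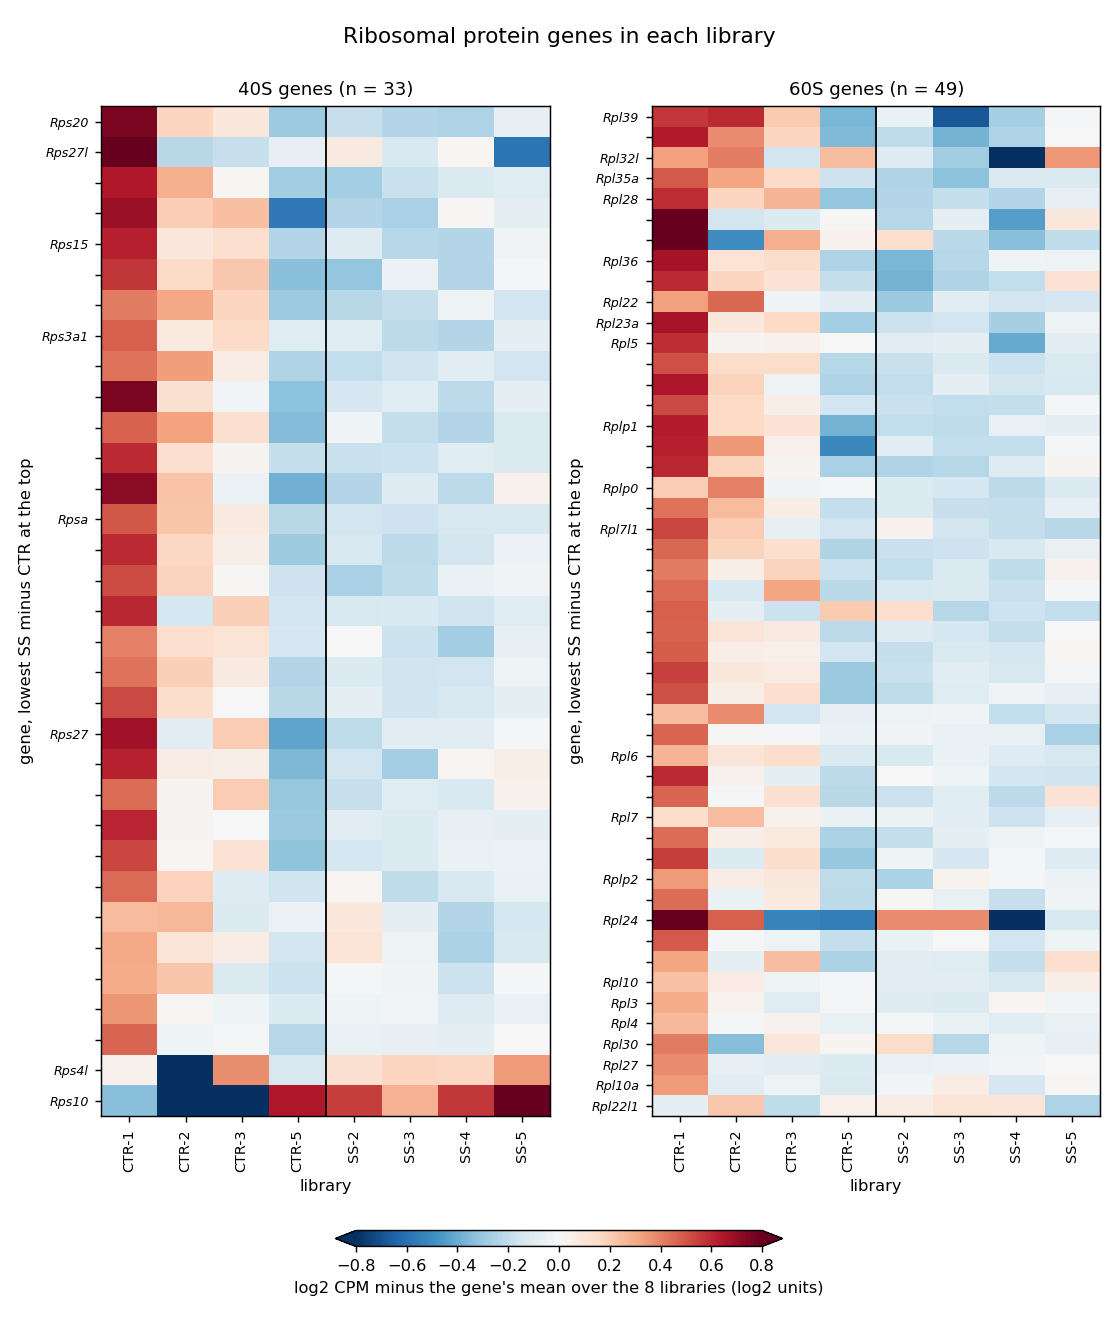
Each row is a tested ribosomal protein gene (33 for the 40S on the left, 49 for the 60S on the right) and each column a library; colour is the log2 CPM minus the gene's mean over the 8 libraries, in log2 units, with rows ordered from the lowest SS minus CTR estimate at the top and labels for genes described in the text. CTR-1 is red in nearly every row, being the highest library for 72 of the 82 genes, and CTR-5 is the lowest of the 4 CTR libraries for 68.

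Among the 40S genes, the estimate was below 0 for 31 of 33, with a median of -0.285. Rps20, a protein of the 40S head, had the lowest. Its CPM was 189, 126, 119 and 91.6 in CTR, and 98.6, 95.1, 94.4 and 107 in SS. CTR-1 stood far above the rest, CTR-5 was below every SS library, and the groups overlapped (log2 fold change -0.41, SE 0.18, adjusted p = 0.755). Rps15, which sits near the decoding site, was the most abundant gene per kb of exon of all 89, at 409.8 CPM per kb. Its CPM was 391, 269.7, 279 and 216 in CTR, against 236, 217, 216 and 249 in SS, so CTR-5 again lay at the bottom of the SS values (log2 fold change -0.33, SE 0.15, adjusted p = 0.755). Rps3a1 had the smallest p of the 40S genes. Its CPM was 207, 156, 165 and 139 in CTR and 138, 128, 126 and 141 in SS, with only SS-5 above the lowest CTR library (log2 fold change -0.32, SE 0.12, adjusted p = 0.755; exact two-sided permutation p = 0.057).

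Rpsa, the laminin receptor protein that also forms part of the 40S subunit, held 227, 187, 168 and 138 CPM in CTR and 145, 143, 147 and 147 in SS. The 4 SS libraries lay close together (SD 1.96 CPM, beside 37.2 in CTR), and CTR-5 was the lowest of all 8 (log2 fold change -0.31, SE 0.13, adjusted p = 0.755).

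Rps10 and Rps4l were the exceptions among the 40S genes, with estimates above 0. Rps10, a protein of the mRNA entry side, had only 15 to 114 counts per library. Its CPM was 1.45, 0.768, 0.648 and 2.90 in CTR and 2.73, 2.24, 2.75 and 3.504 in SS, so CTR-5 lay within the SS range (log2 fold change 0.95, SE 0.60, adjusted p = 0.787). With the counts of its -ps pseudogenes added, the log2 fold change was 0.235 (adjusted p = 0.936). For a protein of every ribosome these are very low counts. Of the exonic bases of Rps10, 20.6% are shared with the annotated readthrough gene RPS10-NUDT3 on the same strand, where a read cannot be given to 1 gene. Of the 75-base stretches of its principal transcript, 49.3% occur in transcripts of other genes. The part of this sharing in the low counts was not tested. Rps4l, annotated as a transcribed processed pseudogene, had 10.5, 4.85, 13.3 and 9.37 CPM in CTR and 11.1, 11.5, 11.5 and 13.0 in SS (log2 fold change 0.31, SE 0.28, adjusted p = 0.853), with CTR-2 far below the other 7.

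Among the 60S genes, the estimate was below 0 for 48 of 49, with a median of -0.239. Rpl35a had the smallest p of all. It lies at chr16:33056453-33060189 on the + strand (GRCm38) and held 114, 101, 90.2 and 72.4 CPM in CTR and 68.5, 64.7, 74.9 and 74.9 in SS. CTR-5 fell among the SS values and the other 3 CTR libraries were above them (log2 fold change -0.42, SE 0.14, p = 0.0109, adjusted p = 0.714; exact two-sided permutation p = 0.086). Rpl28 showed 279.5, 209, 224 and 149.7 CPM in CTR and 157, 163, 158 and 177 in SS, with CTR-5 below all 4 SS libraries (log2 fold change -0.40, SE 0.15, adjusted p = 0.755).

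The lowest estimate of the 82 belonged to Rpl39, whose small basic protein lines the exit tunnel. It held 21.03, 21.5, 16.5 and 11.03 CPM in CTR and 13.7, 8.86, 11.8 and 14.1 in SS (log2 fold change -0.53, SE 0.24, adjusted p = 0.755). CTR-5 lay inside the SS range, and the gene has one of the shortest coding sequences, 153 nt. Rpl32l, an annotated processed pseudogene, also had a low estimate at -0.42, but it rests on 6 to 21 counts per library and has an SE of 0.89.

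Rpl5, which carries the 5S RNA into the ribosome and binds the p53 regulator Mdm2, was one of the 2 genes whose groups did not overlap. It lies at chr5:107900502-107909005 on the + strand and held 74.3, 49.97, 50.5 and 49.3 CPM in CTR and 46.3, 46.8, 37.2 and 46.3 in SS. CTR-1 stood above the other 3 CTR libraries and SS-4 below the other 3 SS libraries (log2 fold change -0.34, SE 0.16, adjusted p = 0.755). The exact two-sided permutation p was 0.029, the smallest that 4 against 4 can give. Any gene without overlap gets this value, so it adds nothing to the missing overlap.

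Rpl4 was the gene with the highest CPM of all, and its libraries were among the closest together. It held 521, 431, 446 and 418 CPM in CTR and 432, 420.0, 408 and 418 in SS (log2 fold change -0.11, SE 0.085, adjusted p = 0.817). Rpl7, Rpl10 and Rpl6, with Rpl4, had the smallest spread within groups (SD 0.0997 to 0.116 log2 units). Rpl7 had 138 ± 12.6 CPM in CTR and 121 ± 4.28 in SS, Rpl10 had 134 ± 11.7 and 123 ± 6.89, and Rpl6 had 136 ± 14.8 and 118 ± 2.65 (SD, n = 4 each). The adjusted p was 0.755 for Rpl7 and Rpl6 and 0.820 for Rpl10. Rpl36 and Rpl23a were also among the 6 most abundant per kb. Rpl36 held 164, 112, 114 and 87.4 CPM in CTR and 80.4, 88.4, 101 and 101 in SS, and Rpl23a had 232 ± 63.8 CPM in CTR and 182 ± 11.7 in SS (SD, n = 4 each; adjusted p = 0.755 for both).

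Rpl22l1, described with its paralog below, had the only 60S estimate above 0, and Rpl10a, Rpl27 and Rpl30 came next. Rpl10a had 98.4, 72.8, 75.4 and 71.7 CPM in CTR and 76.4, 81.1, 70.7 and 78.1 in SS (log2 fold change -0.055, SE 0.12). Rpl27 had 69.3, 50.8, 50.2 and 49.4 CPM in CTR and 51.4, 51.6, 52.5 and 53.2 in SS (log2 fold change -0.074, SE 0.13), so that without CTR-1 every SS library was above every CTR library. Rpl30 had 106, 62.8, 84.7 and 80.9 CPM in CTR and 88.2, 67.8, 77.7 and 76.0 in SS (log2 fold change -0.11, SE 0.15). For these 3 genes the sign of the estimate turned without CTR-1, to 0.064, 0.057 and 0.025.

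The stalk proteins recruit the elongation factors, with Rplp0 as the base and pairs of Rplp1 and Rplp2 on it. Rplp0, at chr5:115559467-115563727 on the + strand, was the other gene whose groups did not overlap. It held 82.5, 94.5, 70.2 and 71.2 CPM in CTR and 66.3, 64.7, 61.8 and 66.1 in SS. The lowest CTR library was nearer to the highest SS library than to the highest CTR library (log2 fold change -0.30, SE 0.12, adjusted p = 0.755). The exact two-sided permutation p was 0.029, again fixed by the missing overlap. Rplp1, the second most abundant per kb at 323 CPM per kb, held 245, 177, 171 and 122 CPM in CTR and 138, 138, 152 and 151 in SS, with CTR-5 below all 4 SS libraries (log2 fold change -0.31, SE 0.17, adjusted p = 0.762). Rplp2 held 171, 140, 144 and 117 CPM in CTR and 113, 138, 133 and 131 in SS (log2 fold change -0.15, SE 0.12, adjusted p = 0.831). The 3 stalk genes thus did not share 1 order of libraries, since Rplp0 was highest in CTR-2 and the other 2 in CTR-1.

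Paralogs let a gene be set beside a related copy of it. Rpl22, an RNA-binding protein of the 60S surface, held 83.0, 90.9, 64.5 and 62.0 CPM in CTR and 53.7, 62.3, 59.4 and 60.04 in SS (log2 fold change -0.35, SE 0.14, adjusted p = 0.755). Its paralog Rpl22l1 held 25.8, 31.8, 23.7 and 28.0 in CTR and 28.5, 29.4, 29.4 and 23.0 in SS (log2 fold change 0.013, SE 0.15, adjusted p = 0.994). The SS values of Rpl22 overlapped CTR only through SS-3 and CTR-5, whereas those of Rpl22l1 lay inside the CTR range but for SS-5; the difference between the 2 genes was not tested.

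Rps27 held 274, 162, 198 and 128 CPM in CTR and 149, 162, 162 and 171 in SS (log2 fold change -0.24, SE 0.19, adjusted p = 0.822). Its p53-responsive paralog Rps27l held 18.6, 7.47, 7.69 and 8.35 in CTR and 9.21, 8.03, 8.85 and 5.82 in SS (log2 fold change -0.39, SE 0.32, adjusted p = 0.831), where CTR-1 stood far above the other 7. Rpl7l1 had 61.3 ± 13.7 CPM in CTR and 50.2 ± 4.16 in SS (log2 fold change -0.28, SE 0.15, adjusted p = 0.759). Rpl3 had 166 ± 20.3 CPM in CTR and 154 ± 6.67 in SS (log2 fold change -0.11, SE 0.10, adjusted p = 0.855).

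The remaining paralogs were too low to test. Rpl3l, the form of skeletal and heart muscle, had 0 to 51 counts per library, and Rpl39l, known from testis, had 18 counts in SS-3, 4 in CTR-1 and 0 elsewhere. Rpl10l, the testis copy of Rpl10, had 0 counts in all 8 libraries, which allows a share of at most 1.5e-05% of the counts in the shallowest library and 6.34e-06% in the deepest. Rps3a2 had 73 counts in CTR-1 and 2 to 22 in the other libraries, and Rps3a3, Rpl6l and Rps12l1 had at most 6.

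How far these counts can be given to 1 gene differs between members, because the genome holds many processed copies. Over the principal transcripts (GENCODE M21), 80 of the 82 tested genes shared at least one 75-base stretch, the read length, with a transcript of another gene, and 29 shared over 50% of theirs. The share was 98.5% for Rps27, 84.9% for Rpl10, 27.4% for Rplp0 and 1.42% for Rpl22. The median log2 fold change was -0.231 for the 29 and -0.285 for the other tested genes. Rows marked -ps took 0.0115% to 0.0196% of the counts. Many of the matching transcripts carry other symbols, such as Gm names, and are not in this share. Rpl24 was nearly uncounted, with 8 to 38 counts per library, and 47% of its exonic bases are shared with the annotated gene Gm28037 on the same strand. The part of this sharing in the low counts was not tested. The CPM of Rpl24 ranged from 0.382 to 1.09 in CTR and from 0.301 to 0.789 in SS (log2 fold change -0.15, SE 0.87). Values of these genes are therefore uncertain as levels.

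Summed over all 89 genes, ribosomal protein transcripts took 1.29%, 0.989%, 0.979% and 0.815% of the counts in CTR, and 0.876%, 0.881%, 0.877% and 0.937% in SS. The widest 95% Wilson interval was 0.00987 percentage points, which covers counting error only, so the libraries differ by far more than counting. The mean was 1.02% ± 0.197 in CTR and 0.893% ± 0.0295 in SS (SD, n = 4 each). The groups overlapped, and the 4 SS values lay inside the range of the 4 CTR values. Without CTR-5 and SS-5 the means were 1.08% ± 0.175 and 0.878% ± 0.00245 (n = 3 each), and the groups did not overlap. Without CTR-1 the CTR mean was 0.928% ± 0.0975, and without both CTR-1 and CTR-2 it was 0.897% ± 0.116.

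**Figure D2:**
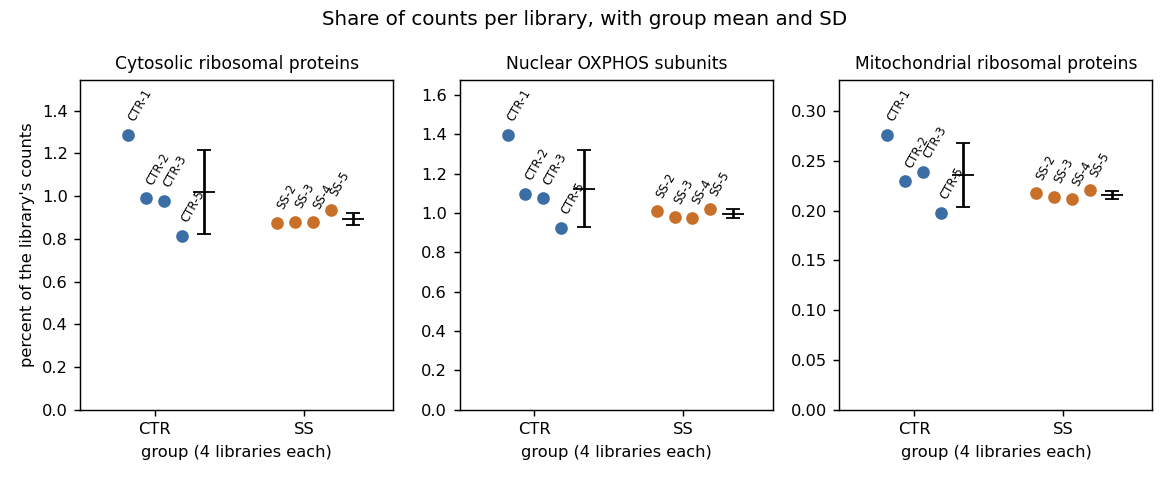
Points are libraries, the vertical axis is the percent of the library's counts, and bars give the group mean and SD (n = 4); the panels show cytosolic ribosomal proteins, nuclear OXPHOS subunits and mitochondrial ribosomal proteins. In each panel CTR-1 is the highest and CTR-5 the lowest library, and the SS libraries lie close together between them.

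The CTR libraries lay much further apart than the SS libraries. The median SD of log2 CPM was 0.307 in CTR and 0.0837 in SS, beside 0.371 and 0.192 over all tested genes. The SD was larger in CTR for 81 of 82 genes, the exception being Rpl32l, and for 83.1% of all tested genes. Relative to each gene's mean over the 8 libraries, the median level was 0.488, 0.108, 0.0583 and -0.207 log2 units in CTR, and -0.111, -0.118, -0.15 and -0.0586 in SS. CTR-1 was the highest of the 8 libraries for 72 of the 82 (87.8%), beside 25.7% of all tested genes, and CTR-5 the lowest CTR library for 68 (82.9%), beside 19.5%. All 4 SS values lay inside the CTR range for 46 of the 82 (56.1%), beside 42.5% of all tested genes.

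The widest spread within groups belonged to Rps10, Rpl24, Rps27l and Rps4l, at 0.442 to 0.687 log2 units. The first 2 are the members with few counts described above.

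Ribosomal protein mRNAs are short, and other short genes also had medians below 0. The median coding length was 454.5 nt for the tested ribosomal protein genes and 1410 nt for all tested genes with one. Among the other genes, the median log2 fold change was -0.184 for coding lengths up to 300 nt, -0.168 from there to 450 nt, -0.103 to 600 nt, -0.0773 to 900 nt, -0.0329 to 1500 nt, 0.0532 to 3000 nt and 0.148 above that. In the same 5 shorter classes the ribosomal protein genes had -0.307 (n = 10), -0.249 (n = 28), -0.288 (n = 19), -0.243 (n = 20) and -0.114 (n = 3). Their median was below that of the other genes in each of the 5 classes. In the classes up to 900 nt, 72.8%, 71.4%, 68.2% and 63.1% of the other genes had estimates below 0. The ribosomal protein genes had 100%, 96.4%, 94.7% and 100% there. At an unadjusted p under 0.05, 9.89%, 7.35%, 6.48% and 5.99% of the other genes were lower in SS. For the ribosomal protein genes these shares were 10%, 28.6%, 5.26% and 35%. The part of transcript length in the SS against CTR difference was not tested; with each library's trend on coding length taken out, an alternative chosen after seeing the data, the median was -0.123 and 71 of 82 estimates were below 0, and with the trend on exonic length it was -0.121 and 74 of 82.

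**Figure D3:**
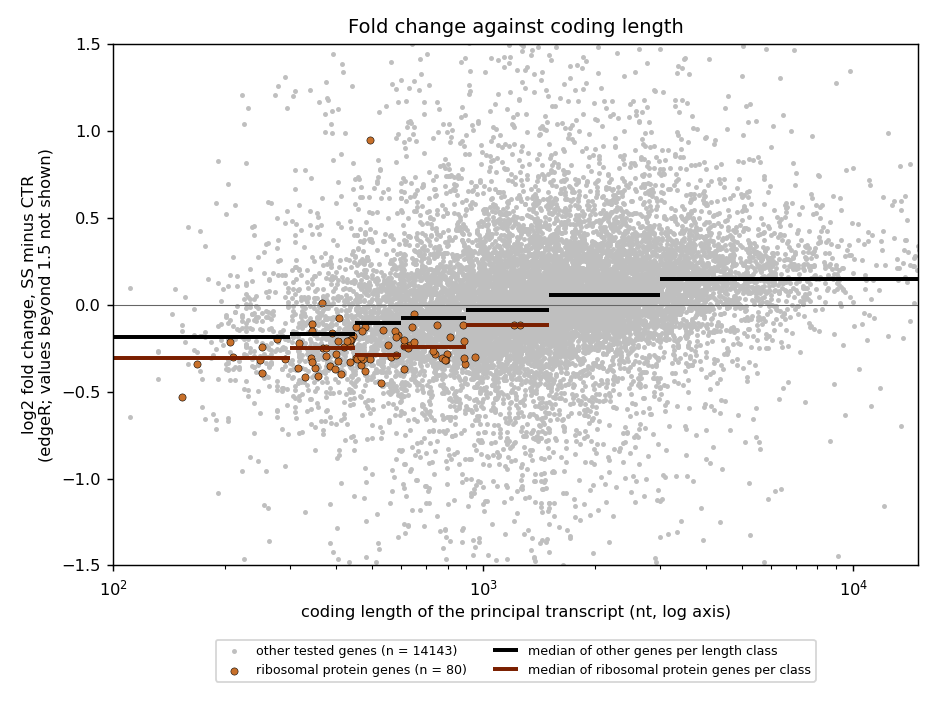
Each point is a tested gene with a coding length, which is on the horizontal axis in nt (log axis), and the vertical axis is the edgeR log2 fold change, SS minus CTR; orange points are the 80 ribosomal protein genes and horizontal lines are class medians. The medians of the other genes climb from -0.184 in the shortest to 0.148 in the longest class, and those of the ribosomal protein genes lie below them in all 5 classes they occupy.

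The same trend separated the libraries. In CTR-1 the median level of the other genes was 0.317 log2 units for coding lengths up to 300 nt and -0.333 for those over 3000 nt, and in CTR-5 it was -0.0854 and 0.144. The 10 ribosomal protein genes of the shortest class had medians of 0.635 in CTR-1 and -0.343 in CTR-5. With the coding length trend taken out, the median level of the ribosomal protein genes was still 0.271 in CTR-1 and -0.102 in CTR-5, and their median SD within groups was 0.156 in place of 0.232.

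**Figure D4:**
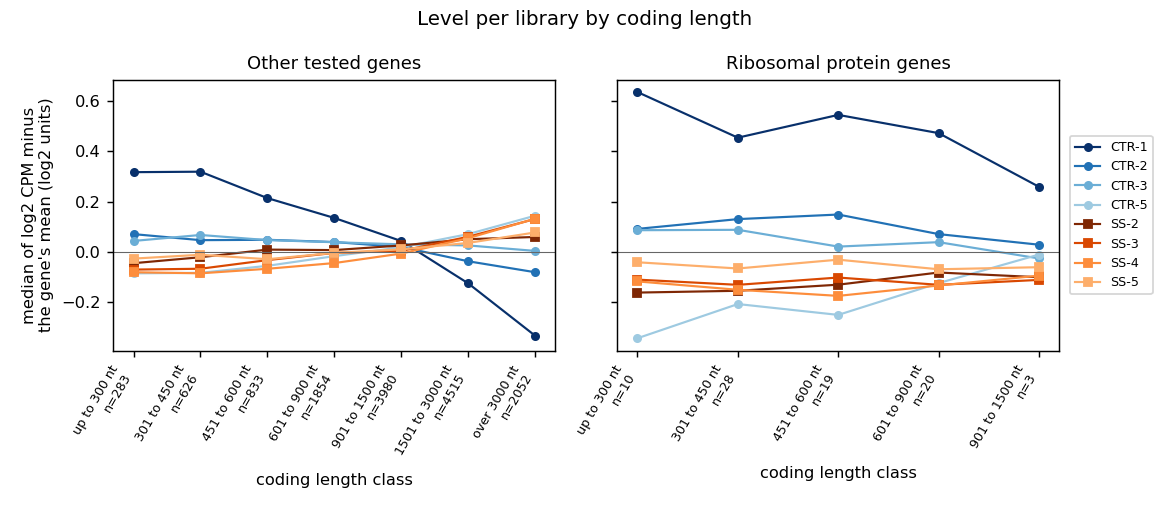
Lines are libraries, the horizontal axis is the class of coding length with its number of genes, and the vertical axis is the median over genes of log2 CPM minus the gene's mean, in log2 units, for other tested genes (left) and ribosomal protein genes (right). CTR-1 runs from 0.317 to -0.333 in the left panel and stays above all other libraries in the right panel.

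Other gene groups were described the same way. Nuclear OXPHOS subunits, which build the respiratory chain and are also short (median coding length 409.5 nt), had estimates below 0 for 73 of 79 and a median of -0.273, with 0 called. Their library medians ran from 0.52 in CTR-1 to -0.196 in CTR-5, close to those of the ribosomal proteins. Cox8a, a cytochrome oxidase subunit, held 391, 269, 221 and 182 CPM in CTR and 202, 192, 190 and 202 in SS (adjusted p = 0.755). Mitochondrial ribosomal proteins had 64 of 77 below 0 and a median of -0.153, with 0 called and Mrpl30 the one with the smallest p (39.2 ± 4.13 CPM in CTR, 29.7 ± 2.56 in SS, adjusted p = 0.713).

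Elongation factors had 10 of 11 below 0 (median -0.111), initiation factors 23 of 31 (median -0.0815), and other mRNAs known to carry a TOP motif 15 of 16 (median -0.138), with 0 called in each. Tpt1, the only one of these other TOP mRNAs with an unadjusted p under 0.05, held 471, 347, 330 and 333 CPM in CTR and 316, 316, 300.5 and 308 in SS (log2 fold change -0.26, adjusted p = 0.755). Eef1a1, which delivers aminoacyl-tRNA, was the most abundant of them per kb, with 1629 ± 77.3 CPM in CTR and 1481 ± 56.96 in SS (log2 fold change -0.14, adjusted p = 0.755).

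Lists of genes that build ribosomes or control growth had medians close to or above 0. Ribosome biogenesis factors had 21 of 42 below 0 (median 0.0017), RNA polymerase I and its factors 3 of 11 (median 0.18), and growth control genes such as Mtor, Tsc1 and Larp1 10 of 19 (median -0.012), with 0 called in each. Their median coding lengths were 1518, 1758 and 1575 nt. A few ribosomal protein genes have symbols outside the rule. Fau, a fusion of a ubiquitin-like domain with a 40S protein, had 145 ± 25.9 CPM in CTR and 123 ± 3.29 in SS, and Rack1, a scaffold on the 40S head, had 154 ± 21.8 and 131 ± 10.6 (adjusted p = 0.755 for both).

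Cell type markers were measured beside the ribosomal proteins. The summed CPM of the 9 dopamine neuron markers was 762 to 1731 in CTR and 157 to 248 in SS, and it was 1612 in CTR-5, the CTR library with the lowest ribosomal protein share. The summed CPM of 8 oligodendrocyte markers was 31435, 32404, 29816 and 22980 in CTR and 26147 to 28976 in SS, so it too was lowest in CTR-5; 8 of 8 estimates were below 0 and 0 were called. Neuron markers had 6 of 6 below 0 (3719 to 4019 CPM summed in SS, 4459 to 4825 in CTR, 0 called), astrocyte markers 4 of 7 and microglia markers 7 of 7 (244 to 278 CPM in SS, 256 to 357 in CTR). Endothelial markers had 2 of 6 below 0, red blood cell markers 3 of 4 and ependymal and choroid plexus markers 2 of 4, with 0 called in each. The choroid plexus marker Ttr held 234 CPM in CTR-5 and 3.67 to 18.8 in the other 7 libraries. The part of these cell types and of library quality in the ribosomal protein values was not tested.

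Across 23 other settings, the median log2 fold change of the ribosomal protein genes stayed below 0, from -0.376 to -0.0425. In each, 0 of them passed an adjusted p of 0.05. The setting without mt- genes could not differ from the reported fit, since no library held counts on those genes. The value nearest 0 came with CTR-1 and CTR-2, the libraries with the most undetected weak genes, left out, a setting chosen after seeing the data. In that fit 60 of 84 estimates were below 0. There 0 had an unadjusted p under 0.05, where 3.61% of all genes were lower at that threshold.

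**Figure D5:**
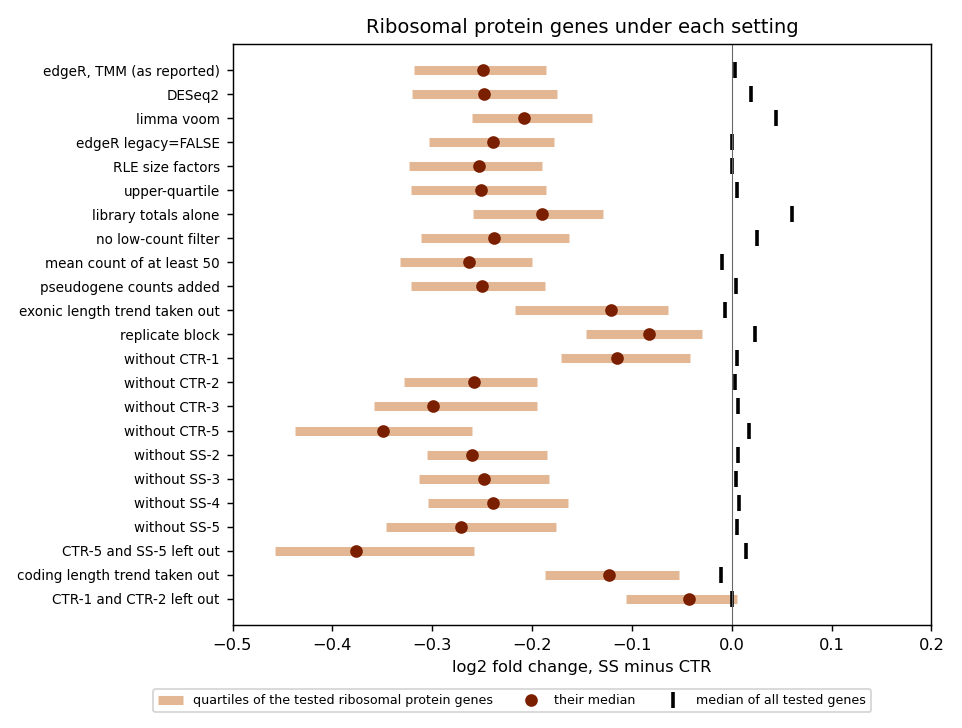
Each row is 1 way of processing the counts or 1 set of libraries left out; the horizontal axis is the log2 fold change, SS minus CTR, with the median of the tested ribosomal protein genes as a dot, their quartiles as a bar and the median of all tested genes as a tick. All medians lie below 0, furthest with CTR-5 and SS-5 left out (-0.376) and nearest with CTR-1 and CTR-2 left out (-0.0425).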

How the data were processed

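RNA from bilateral VTA punches of 4 CTR and 4 SS mice was sequenced as 1 library per mouse. The deposited values are raw counts per gene symbol, which the authors made with htseq-count on Ensembl release 102 after trimming (Cutadapt) and alignment by STAR against mm10; versions and the strand and multi-mapping settings are not given in the sources used here. The table holds no entries for reads left without a gene.

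The genes named in the text and the gene lists were chosen with earlier results of these data known. Counts were filtered with filterByExpr (minimum count 10, minimum total 15), scaled by TMM and compared with glmQLFit and glmQLFTest of edgeR 4.0.16 in R 4.3.3 at their defaults, group only, with Benjamini-Hochberg adjustment over 16538 genes. SE is the absolute log2 fold change divided by the square root of F. DESeq2 1.42.0 and limma 3.58.1 voom were alternatives. Exact two-sided permutation tests used log2 CPM (prior count 2) over 70 assignments, for which p cannot go below 0.029. CPM in the text is TMM-scaled. Named genes were the members with the 6 highest and 6 lowest fold changes, those without overlap, the 6 most abundant per kb of exon, the 4 with the largest and the 4 with the smallest SD, stalk genes, paralogs and untested members; in other lists, those past the threshold, the most abundant per kb or the smallest p. Lengths came from GENCODE M21 (GRCm38), with exonic length for 99.5% and coding length for 86% of tested genes. Promoter windows came from RefSeq. The model code and the length offsets were tested on simulated data. A few genes that this rule names are not reported here.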

Additional observations from a re-analysis of the deposited data

Results flagged for a closer look

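In 72 groups of 4 libraries examined by Dixon's test, 8 (11.1%) had a library set apart from the other 3. The test's nominal rate of about 5% is for independent groups chosen without regard to spread. These groups reuse the same libraries, and some genes were named for their spread, so the rates cannot be compared. The share of counts on the ribosomal protein genes in SS was set apart by SS-5 at 0.937%, and so was the share on the 40S genes at 0.392%. In CTR, the log2 CPM of Rpl10a (6.62), Rpl27 (6.12), Rpl5 (6.22) and Rps27l (4.22) was set apart by CTR-1, in each case the highest library. In SS, Rpl22l1 was set apart by SS-5, the lowest at 4.52, and Rpl5 by SS-4, the lowest at 5.22. SS-5 is one of the 2 libraries that carry Xist against their label.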

How the results depend on the processing

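Under the alternatives listed in the processing, 0 ribosomal protein genes passed an adjusted p of 0.05. With 1 library left out in turn, the count past the threshold stayed at 0, the median log2 fold change ranged from -0.349 to -0.115, the number below 0 from 72 to 81, and the difference in share (SS minus CTR) from -0.192 to -0.0349 percentage points. The median was -0.0425 with CTR-1 and CTR-2 left out. The spread within groups was 0.165 log2 units with the exonic length trend taken out and 0.156 with the coding length trend taken out.

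Of 734 values of 32 named genes under an alternative, 701 kept their direction and 33, in 9 genes, turned. The 701 include the setting without mt- genes, which repeats the reported fit. Rpl24 turned to 0.0971 with limma voom, 0.0694 with the bias-adjusted edgeR fit, 0.0733 and 0.00403 with the exonic and coding length trends taken out, and 0.652 with CTR-1 and CTR-2 left out. Rpl10a turned to 0.00341 with library totals alone, 0.0174 and 0.0344 with the 2 length trends taken out and 0.06 with CTR-1 and CTR-2 left out; Rpl27 to 0.0631, 0.0665 and 0.0676 under the last 3. With the coding length trend taken out, Rpl30 was 0.0406 and Rplp2 0.00307; with CTR-1 and CTR-2 left out, Rpl3 was 0.00151; with a mean count of at least 50, Rpl22l1 was -8.09e-05. Leaving out 1 library gave ranges of -0.056 to 0.0932 for Rpl22l1, -0.349 to 0.172 for Rpl24, -0.101 to 0.0639 for Rpl10a, -0.121 to 0.0574 for Rpl27, -0.224 to 0.025 for Rpl30 and -0.524 to 0.0262 for Rps27l. The causes were not tested.

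CTR and SS share replicate numbers 2, 3 and 5. The within-group deviations of same-numbered libraries had correlations of -0.00625, -0.00767 and 0.0603. These values cannot show whether a litter or batch was shared, and the labels do not say what the number means. CTR-5 and SS-5 also both carry Xist against their label. With the replicate block, 0 genes were called, the median was -0.0829 and 66 of 82 were below 0; CTR-1 and SS-4 have no partner and do not bear on that estimate. Under the block Rpl22l1 was -0.0443, Rpl10a 0.099, Rpl27 0.0536, Rpl30 0.0255, Rpl24 0.461 and Rps27 0.00153.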
